A study of Mus musculus with 67 samples.

Results

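Primitive endoderm (PrE) of wild-type mouse embryos was compared between embryonic days E4.5 and E4.75. The comparison used 3 libraries of each age, 6 of the 67 RNA-seq libraries of the series, and these were chosen by their labels alone. The series samples the lineages of the mouse embryo around implantation, and its title names the remodelling of bivalent chromatin, in which active and repressive histone marks lie together. Embryos came from natural matings and carried a reporter in which the promoter of Pdgfra, a growth factor receptor gene of the primitive endoderm, drives EGFP to help separate the lineages. The tissue was digested with trypsin, and each library was amplified from a small pool of cells by Smart-seq2, a full-length protocol for polyadenylated RNA. Both groups were labelled wild type and PrE and differed in age, with no treatment named. The labels name both culture and dissection without saying which applied here. They call the 3 libraries biological replicates without saying whether these came from separate embryos, so a p-value measures the spread between libraries, which may be technical. Levels are TPM (a length-scaled share of the transcripts of a library) after the ribosomal RNA precursor Rn45s was dropped and each library rescaled. In a bulk sample a lower level of a gene can mean fewer cells that express it or less RNA per cell, and these cannot be told apart.

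The primitive endoderm is the epithelium that forms on the blastocoel side of the inner cell mass under FGF signalling, with Gata6, Gata4, Sox17 and Sox7 as transcription factors. After implantation it gives rise to the visceral endoderm, which takes up maternal nutrients and secretes plasma proteins, and to the parietal endoderm, which lays down a thick basement membrane. A distal and then anterior part of the visceral endoderm secretes inhibitors of Nodal and WNT signalling that pattern the adjacent epiblast (Epi).

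The libraries of the 2 ages differed in composition, and every result below rests on all 6 of them. Rn45s took 15.1%, 20.8% and 16.7% of the deposited TPM at E4.5 and 0.814%, 1.10% and 1.10% at E4.75. The Epi libraries of E4.5 carried 18.6% to 24.8%, and the other 58 libraries 0.10% to 11.2%. Genes at 1 TPM or more numbered 9052 to 10117 at E4.5 and 10978 to 11106 at E4.75. The median SD of a gene between libraries was 0.51 log2 units at E4.5 and 0.15 at E4.75. Pearson correlations across genes within an age ran from 0.898 to 0.921 and from 0.989 to 0.990, and between the ages from 0.851 to 0.875. Summed markers of other lineages were higher at E4.75. The 7 epiblast markers summed to 3924 to 4271 TPM at E4.5 and 4822 to 4890 TPM at E4.75, most of it Dppa5a, and 3 of them rose. The 7 trophectoderm markers summed to 215 to 275 and 330.4 to 332 TPM with Cdx2 at 0 in all 6 libraries, and the 4 extra-embryonic ectoderm markers to 25.0 to 37.8 and 63.3 to 74.2 TPM. Giant cell markers (0 against 0.285 to 0.947 TPM), uterine stroma markers (0 to 0.293 against 1.62 to 2.41 TPM) and blood markers (0 against 3.22 to 4.60 TPM) stayed low, with Prl2c2, Ctsq, Lum, Col3a1, Hbb-bs and Ptprc at 0 throughout. The part of these differences in the results was not tested.

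Sox17, Gata4, Gata6, Dab2 and Lrp2 were detected in every library of both ages. Other primitive endoderm genes, among them Sox7, Cubn, Pdgfra, Foxa2 and Hnf4a, are given below, and some of those changed. Sox17 was 48.9, 77.3 and 57.6 TPM at E4.5 and 73.7, 65.7 and 74 TPM at E4.75. Gata4 was 49.2, 66.4 and 75 TPM at E4.5 and 62, 62.2 and 51.8 TPM at E4.75. For Gata6 the values were 18.4, 13.1 and 22.8 TPM at E4.5 and 22.6, 28 and 22 TPM at E4.75, and the libraries of the ages overlapped for all 3 genes. None of these transcription factor genes was called (log2 0.23, -0.10 and 0.43, adjusted p = 0.38, 0.73 and 0.28), and the sign for Gata4 turned with Rn45s kept (log2 0.16) and under quantile normalization (0.13). Dab2, an endocytic adaptor, was 2853, 1768 and 2529.5 TPM at E4.5 and 2476, 2263 and 2283 TPM at E4.75. The endocytic receptor gene Lrp2 was 291, 256 and 307 TPM at E4.5 and 203, 198 and 197 TPM at E4.75 (log2 -0.51 ± 0.09, adjusted p = 0.0054), lower in each E4.75 library but under the minimum difference of 1 log2 unit. Nanog, a pluripotency factor, was listed at 0 in all 3 E4.5 libraries and was 0, 1.21 and 1.16 TPM at E4.75.

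**Figure D1:**
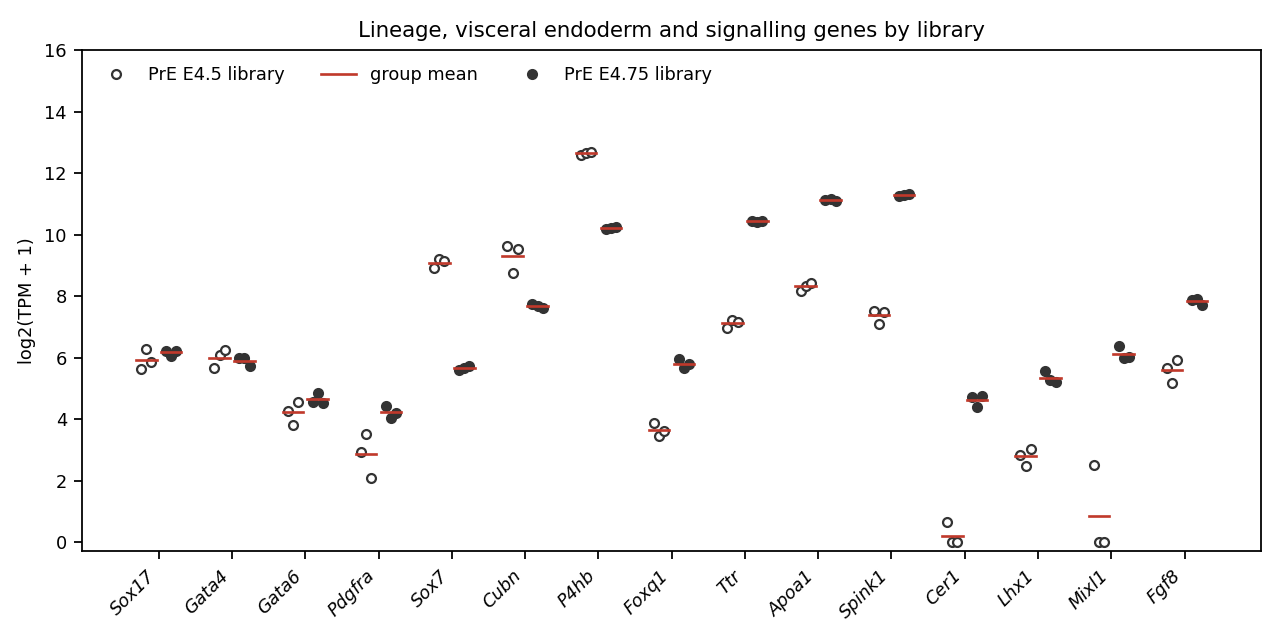
TPM of 15 lineage, visceral endoderm and signalling genes in each of the 3 E4.5 (open circles) and 3 E4.75 (filled circles) primitive endoderm libraries, drawn as log2(TPM + 1), with a bar at each group's mean. Sox17, Gata4 and Gata6 overlap between the ages, Sox7 lies lower in every E4.75 library, and Ttr, Apoa1, Cer1 and Mixl1 lie higher in each.

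Across all genes, transcripts that rose at E4.75 outnumbered those that fell. Of 10873 genes at 1 TPM or more in at least 3 of the 6 libraries, limma called 1656 higher (15.2%) and 996 lower (9.16%), at an adjusted p under 0.05 and a log2 difference of at least 1. Together these were 24.4% of the genes tested, while 50.5% of all tested genes had no overlap between the ages. Risen genes often were at 0 in E4.5 libraries. Of the risen genes 268 were listed at 0 in all 3 E4.5 libraries and 701 in at least 1, against 4 and 16 fallen genes listed at 0 at E4.75. Among the 8915 genes above 0 in every library 1005 rose (11.3%) and 1013 fell (11.4%). Counts of each list below are read against the 15.2% higher and 9.16% lower over all genes. The median difference of all genes was 0.15 log2, against which the median of each list below is read. With Rn45s kept it was 0.35 and 74.0% of calls were higher, and under quantile normalization it was -0.03 and 54.5% were higher, against 62.4% here. The fits without E4.75 replicate 1, 2 or 3 tested 10114, 10139 and 10161 genes. Those seen at E4.75 alone could not reach the minimum of 3 libraries there. In these fits 607, 623 and 619 genes were higher and 752, 716 and 728 lower. Calls were thus fewer in both directions, and 1328, 1327 and 1329 of the 2652 calls were kept. Genes still tested lost calls as well. Of the risen genes 1035 lost no call in any leave-one-out fit that tested them, and 548 were called in all 6; for the fallen genes these were 634 and 625.

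**Figure D2:**
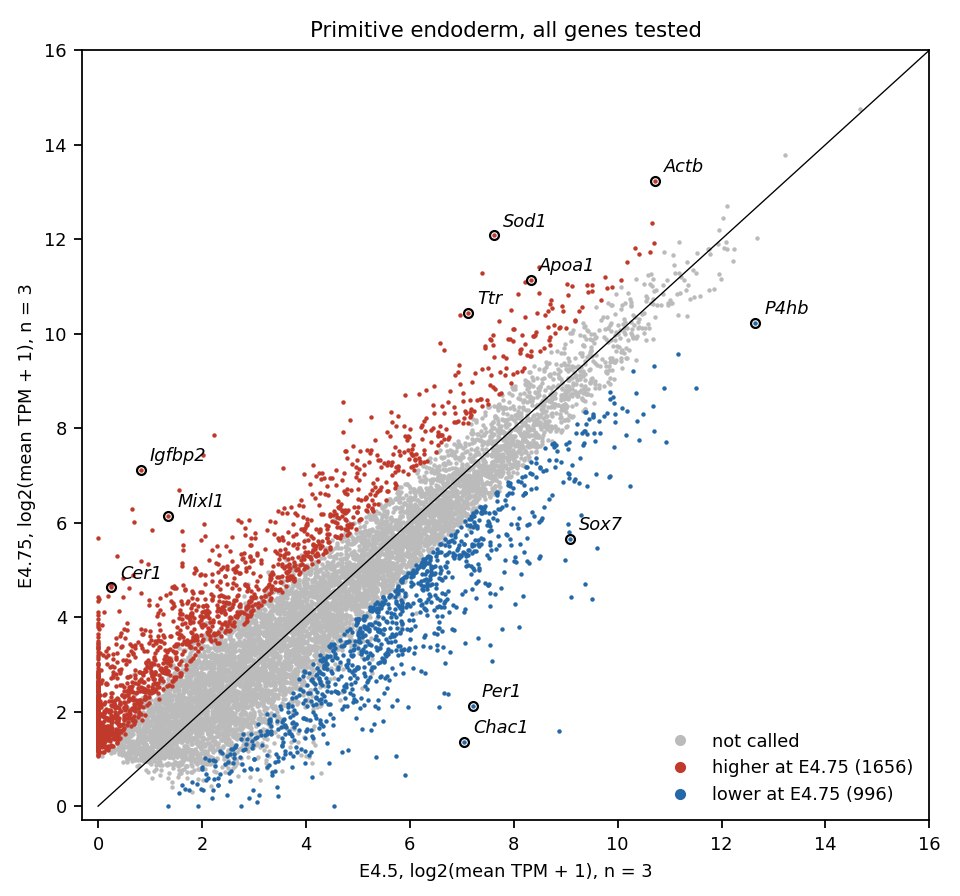
Mean TPM, as log2(mean TPM + 1), of 10873 genes in primitive endoderm of E4.5 (horizontal) and E4.75 (vertical), with called higher genes in red, called lower genes in blue and the rest in grey. The diagonal marks equal levels; risen genes crowd the left edge, where 268 were listed at 0 in all 3 E4.5 libraries, and fallen genes such as Sox7 and P4hb lie at middle and high levels.

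Sox7 was the lineage transcription factor gene with the largest difference. It encodes an SRY-box factor of the early endoderm and lies at chromosome 14, 63943673 to 63950732 on GRCm38. Sox7 was 479.9, 585 and 562 TPM at E4.5 and 46.9, 49.9 and 52.1 TPM at E4.75 (log2 difference -3.42 ± 0.11, adjusted p = 3.0e-06), so the 3 E4.75 libraries lay close together and far below all of E4.5. It was listed at 0 in inner cell mass of E3.5 and was 48.7 ± 2.26 TPM at E5.0 and 35.4 ± 4.08 TPM at E5.25 (SD, n = 3 each, as for every ± on a level). Foxq1, a forkhead factor, rose from 11.6 ± 1.85 TPM to 54.8 ± 5.55 TPM (log2 2.15 ± 0.22, adjusted p = 3.8e-04). Foxa2, the forkhead factor of definitive and visceral endoderm, was 16.7, 14.7 and 26.2 TPM at E4.5 and 42.1, 33.4 and 43.5 TPM at E4.75 (log2 1.04 ± 0.27, adjusted p = 0.021). Its call was lost without E4.5 replicate 1 (log2 0.97) or 2 (0.88) and without E4.75 replicate 1, 2 or 3 (adjusted p = 0.10, 0.056 and 0.11). Hnf4a, a nuclear receptor that drives visceral endoderm genes, was 7.4, 0.883 and 11.2 TPM at E4.5 and 19.5, 15.7 and 17.6 TPM at E4.75 and was not called (adjusted p = 0.15 without the filter on low values, 0.097 with it). Of the 12 listed transcription factor genes 11 were tested, 3 rose, with Cited2 the third (its call was lost in at least 1 leave-one-out fit), and 2 fell. Pdgfra (chromosome 5, 75152292 to 75198215) was 6.6, 10.6 and 3.26 TPM at E4.5 and 20.5, 15.4 and 17.4 TPM at E4.75 and did not overlap (log2 1.37 ± 0.43, adjusted p = 0.044). As this promoter drives the reporter, the level is not independent of how cells were isolated. The call did not hold without E4.5 replicate 1 or 3 (adjusted p = 0.060 and 0.051) or E4.75 replicate 1, 2 or 3 (0.17, 0.12 and 0.14). Among 10 surface and adaptor genes tested 2 rose and 2 fell. Cubn, the receptor that pairs with amnionless in nutrient uptake, fell (799.7, 428 and 733 TPM at E4.5 and 212, 204 and 197 TPM at E4.75; log2 -1.62 ± 0.22, adjusted p = 0.0013). Podxl, a sialomucin of apical surfaces, fell too (28 ± 0.937 against 101 ± 21.3 TPM, log2 -1.80 ± 0.19, adjusted p = 4.2e-04). Srgn, a proteoglycan gene, was 1790.4 ± 55.2 against 3071 ± 114 TPM and Amn, the amnionless gene, 974 ± 9.98 against 857 ± 109 TPM; neither was called.

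Secreted products of the visceral endoderm rose together. Of 16 listed genes 13 passed the filter, 10 rose, none fell, and their median difference was 2.5 log2 against 0.15 over all genes. One of the 13 was under 1 TPM in every E4.5 library. Ttr, the thyroxine and retinol carrier, was 124, 149.6 and 143 TPM at E4.5 and 1392, 1365 and 1387 TPM at E4.75 (log2 difference 3.31 ± 0.09, adjusted p = 1.8e-06). The groups were far apart, and the spread within each was small beside that gap. Apoa1, the main protein of high-density lipoprotein, was 288, 323 and 347 TPM at E4.5 and 2242, 2265 and 2201 TPM at E4.75 (log2 difference 2.81 ± 0.08, adjusted p = 2.2e-06). Spink1, a protease inhibitor gene, was 183, 137 and 179.9 TPM at E4.5 and 2421, 2529 and 2569 TPM at E4.75 (log2 difference 3.92 ± 0.12, adjusted p = 2.4e-06), also without overlap. Apom, a lipocalin of lipoproteins, rose from 229 ± 63 TPM to 719 ± 11.7 TPM (log2 1.68 ± 0.18, adjusted p = 4.1e-04), and Apoa4 from 96.1 ± 22.5 TPM to 229.6 ± 15.1 TPM (log2 1.27 ± 0.17, adjusted p = 0.0011). At lower levels, Apoa2 was 19.2 ± 2.46 against 2.0 ± 0.816 TPM (log2 2.78 ± 0.38, adjusted p = 0.0014). The iron carrier gene Trf was 13.6 ± 1.79 against 0.468 ± 0.811 TPM (log2 3.44 ± 0.47, adjusted p = 0.0013). Apob, the scaffold of very low density lipoprotein, was 9.59 ± 0.65 against 1.09 ± 1.13 TPM (log2 2.5 ± 0.5, adjusted p = 0.0072). Rbp4, the retinol-binding protein gene, was listed at 0 in all 3 E4.5 libraries and was 10.1, 13.1 and 6.24 TPM at E4.75 (adjusted p = 5.5e-04). The fibrinogen gene Fgb made the tenth, a call lost without E4.5 replicate 3 or any E4.75 library (adjusted p = 0.052, 0.083, 0.091 and 0.064). The 3 not called were already high or moved less: Apoe (6665 ± 198 against 4395 ± 386 TPM, log2 0.60), the pepsinogen gene Pga5 (2463 ± 43.3 against 1607 ± 73.7 TPM, log2 0.62) and Apoc2 (95.1 ± 3.65 against 54 ± 3.86 TPM, log2 0.81). Ttr, Apoa1, Spink1, Apom, Apoa4 and Apoc2 had higher means again at E5.0, at 2321 ± 150.0 TPM, 4865 ± 130.0 TPM, 3736 ± 211 TPM, 1679 ± 131 TPM, 552 ± 10.9 TPM and 683 ± 49.3 TPM. In Epi of E4.75 Ttr was 10.1 ± 0.858 TPM and Spink1 83.8 ± 7.18 TPM.

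Genes of the distal and anterior visceral endoderm rose at the same interval. Of 12 listed genes 11 were tested, 8 rose and none fell, with a median of 1.35 log2. Of the 11, 3 were under 1 TPM in every E4.5 library and passed the filter through E4.75 alone; among the 8 genes above 0 in every library 5 rose. Cer1 (chromosome 4, 82881751 to 82885148), a secreted antagonist of Nodal, BMP and WNT, was 0.566, 0 and 0 TPM at E4.5 and 25.2, 20.1 and 25.9 TPM at E4.75 (log2 difference 4.40 ± 0.39, adjusted p = 2.0e-04). It was listed at 0 in Epi at both ages and in inner cell mass, and reached 68.9 ± 3.57 TPM in PrE of E5.0. Gsc, the homeobox gene goosecoid, was listed at 0 in all 3 E4.5 libraries and was 23.2, 19.5 and 14.9 TPM at E4.75 (adjusted p = 1.6e-04). Lhx1, a LIM homeobox gene, was 6.2, 4.61 and 7.23 TPM at E4.5 and 46, 37.6 and 36.1 TPM at E4.75 (log2 difference 2.55 ± 0.29, adjusted p = 5.7e-04). Sfrp1, a secreted WNT inhibitor, was 0.0968, 0.751 and 0.696 TPM at E4.5 and 26.5, 22.3 and 21.7 TPM at E4.75 (log2 difference 4.04 ± 0.39, adjusted p = 2.8e-04). Otx2, a homeobox factor of the anterior visceral endoderm, was 10.7, 0 and 5.75 TPM at E4.5 and 69.1, 67.7 and 59.5 TPM at E4.75 (log2 difference 3.95 ± 0.83, adjusted p = 0.0088). With a pseudocount of 0.1 TPM its adjusted p was 0.055. Both Lefty1, a Nodal inhibitor (175 ± 13.1 against 76.3 ± 9.12 TPM, log2 1.19 ± 0.13, adjusted p = 4.5e-04), and Dkk1, a WNT inhibitor (198 ± 15.2 against 92.1 ± 3.19 TPM, log2 1.10 ± 0.10, adjusted p = 2.6e-04), were already present at E4.5 and rose further. Hhex, the homeobox gene that marks the distal visceral endoderm first, was 68.4 ± 4.24 against 122 ± 13.3 TPM (log2 -0.82), and Hesx1 74.9 ± 5.97 against 44.5 ± 16.5 TPM (log2 0.81); neither passed. The eighth riser, the WNT inhibitor gene Sfrp5, lost its call without E4.5 replicate 1 or any E4.75 library (adjusted p = 0.073, 0.11, 0.11 and 0.11).

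Ligands and inhibitors of several signalling pathways changed. In the Nodal and activin pathway 6 of 17 tested genes rose and none fell (20 listed, 19 in the table), with a median of 0.78. Over all genes 15.2% rose and 9.16% fell. Of the 17, 2 were under 1 TPM in every E4.5 library. Among the 12 genes above 0 in every library 2 rose, against 11.3% of all such genes. Besides Cer1 and Lefty1 the 6 risers were Tdgf1, Gdf3, Nodal and Lefty2. Nodal, the ligand itself, was 22.3, 5.81 and 21.9 TPM at E4.5 and 48, 47.7 and 41.1 TPM at E4.75 (log2 1.60 ± 0.48, adjusted p = 0.035), a call lost without E4.75 replicate 1, 2 or 3 (adjusted p = 0.10, 0.095 and 0.076). Tdgf1, the co-receptor Cripto, was 1.26, 0.486 and 0 TPM at E4.5 and 78.2, 82.9 and 70.8 TPM at E4.75 (log2 5.71 ± 0.40, adjusted p = 6.2e-05). It was 554 ± 14.7 TPM in Epi of E4.75 and 0.0194 ± 0.0336 TPM in PrE of E5.0. The TGF-beta family gene Gdf3 had 0 in every E4.5 library and 16.9, 11.6 and 18 TPM at E4.75 (adjusted p = 2.0e-04) against 90.6 ± 2.84 TPM in Epi. Cfc1, the Cryptic co-receptor, was 103 ± 10.4 against 66.1 ± 3.26 TPM (log2 0.63) and did not pass. Lefty2 lost its call without E4.5 replicate 2 or 3 (adjusted p = 0.070 and 0.088) or any E4.75 library (0.20, 0.16 and 0.21).

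In the BMP pathway 5 of 16 tested genes rose and none fell (22 listed), with a median of 1.10, against 15.2% of all genes rising. Of the 16, 3 were under 1 TPM in every E4.5 library and passed the filter through E4.75 alone. Among the 9 genes above 0 in every library 2 rose, and 1 of the 5 risers was called in all 6 leave-one-out fits. Bmp2, a ligand of the visceral endoderm, was listed at 0 in all 3 E4.5 libraries and was 6.69, 6.97 and 6.27 TPM at E4.75 (adjusted p = 3.6e-04). Its antagonist gene Nog was likewise listed at 0 and then 7.23, 7.46 and 9.18 TPM (adjusted p = 3.2e-04). The BMP target gene Id1 was 37.1, 47.3 and 28.5 TPM at E4.5 and 101, 118 and 88 TPM at E4.75 (log2 1.44 ± 0.21, adjusted p = 0.0021), and it reached 398 ± 14.8 TPM at E5.0. Id2 (78.8 ± 5.13 against 37.6 ± 8.01 TPM, log2 1.07 ± 0.19, adjusted p = 0.0048) fell below the minimum difference without E4.5 replicate 1 (log2 0.88). Bmp6 was 1.88 ± 0.735 against 0.187 ± 0.324 TPM (log2 1.28 ± 0.33, adjusted p = 0.020) and lost its call under quantile normalization (log2 0.15, adjusted p = 0.76) and with array weights (0.090).

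WNT pathway genes moved both ways, 8 of 18 tested rising and 2 falling (26 listed, median 1.15), against 15.2% and 9.16% of all genes. Of the 18, 3 were under 1 TPM in every E4.5 library, and among the 13 genes above 0 in every library 5 rose and 2 fell. The ligand gene Wnt11 rose (4.47, 3.47 and 8.09 TPM at E4.5 and 24, 25.6 and 24.3 TPM at E4.75; log2 2.08 ± 0.36, adjusted p = 0.0041). Tcf7l2, a nuclear effector gene of the pathway, rose as well (57.5 ± 8.41 against 14.1 ± 2.48 TPM, log2 1.96 ± 0.22, adjusted p = 6.2e-04). Lef1, another factor of that family, was 12.4 ± 1.98 against 0.0189 ± 0.0327 TPM (log2 3.70 ± 0.34, adjusted p = 2.3e-04). It was 89.2 ± 10.6 TPM in Epi of E4.75 and listed at 0 in PrE of E5.0. The inhibitors Sfrp1, Sfrp5 and Dkk1 are described above. Sp5, a WNT target, was 6.09 ± 0.606 against 0.787 ± 1.36 TPM (log2 2.24 ± 0.53, adjusted p = 0.015), with adjusted p = 0.090, 0.085 and 0.077 without E4.75 replicate 1, 2 or 3. Wnt6 fell (3.34, 8.17 and 8.34 TPM at E4.5 and 0.588, 0.639 and 1.02 TPM at E4.75; log2 -2.05 ± 0.43, adjusted p = 0.0085), at adjusted p = 0.072, 0.073 and 0.057 without those libraries. Ctnnb1, which encodes beta-catenin, was 90.0 ± 5.71 against 48.3 ± 5.46 TPM (log2 0.89) and not called here, but was with Rn45s kept (log2 1.14) and under quantile normalization (1.10).

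FGF ligand and receptor genes rose in 5 and fell in 3 of 14 tested cases, with a median of 0.82 (0.013 under quantile normalization). Over all genes 15.2% rose and 9.16% fell, for this list and the feedback targets below alike. Of the 14, 3 were under 1 TPM in every E4.5 library and passed the filter through E4.75 alone. Among the 9 genes above 0 in every library 2 rose and 3 fell. Fgf8, a ligand of the anterior visceral endoderm and primitive streak, was 49.2, 35.3 and 59.9 TPM at E4.5 and 234, 238 and 209.8 TPM at E4.75 (log2 difference 2.25 ± 0.19, adjusted p = 1.7e-04). Fgf10 fell (126, 101 and 142 TPM at E4.5 and 37, 39.6 and 34.1 TPM at E4.75; log2 -1.70 ± 0.17, adjusted p = 2.9e-04). Fgf3, another ligand gene, fell as well (12.3 ± 2.73 against 42 ± 15 TPM, log2 -1.66 ± 0.32, adjusted p = 0.0061). Fgf5 was 86.2, 67.4 and 90.1 TPM at E4.5 and 176, 144 and 168 TPM at E4.75, without overlap, at log2 1.00 after rounding and under the minimum difference. Fgf4, the ligand that epiblast cells send to the primitive endoderm, was 8.41 ± 1.19 against 0.0313 ± 0.0542 TPM (log2 3.18 ± 0.32, adjusted p = 3.4e-04), and Fgf15 13.2 ± 2.49 against 0.0481 ± 0.0834 TPM (log2 3.75 ± 0.35, adjusted p = 2.4e-04). Their Epi levels at E4.75 were 45.7 ± 2.72 TPM and 62 ± 4.91 TPM, and both were listed at 0 in PrE of E5.0. Of 12 tested feedback targets of FGF and ERK signalling 4 rose and 1 fell, and among the 7 above 0 in every library 2 rose and 1 fell. Spry2, an inhibitor of receptor kinases, was 0.92, 0.242 and 5.05 TPM at E4.5 and 63.1, 50.2 and 53.1 TPM at E4.75 (log2 difference 4.53 ± 0.59, adjusted p = 0.0011). The ERK phosphatase gene Dusp6 was 0.423, 0 and 0 TPM at E4.5 and 19, 20.3 and 23.2 TPM at E4.75 (log2 difference 4.27 ± 0.37, adjusted p = 1.8e-04). Egr1, an immediate early factor, fell (16.3 ± 2.37 against 72.3 ± 6.84 TPM, log2 -2.08 ± 0.19, adjusted p = 2.4e-04). Dusp4 (15.5 ± 4.67 against 21.7 ± 1.75 TPM, log2 -0.49) was not called. Dusp6 and Spry2 in Epi of E4.75 were 162 ± 6.49 TPM and 104 ± 13.1 TPM.

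In the cytokine list 1 of 10 tested genes rose and 1 fell, and in the hedgehog and Notch list 2 of 7 rose and none fell, against 15.2% and 9.16% of all genes. Stat3, the effector of LIF and IL-6 family cytokines, fell (57.5, 49.3 and 55.7 TPM at E4.5 and 18.4, 19.1 and 16.4 TPM at E4.75; log2 -1.54 ± 0.19, adjusted p = 8.1e-04). Socs3, an inhibitor gene of the pathway, was the riser. Ihh, the hedgehog ligand made by visceral endoderm, was 0.541, 2.99 and 3.52 TPM at E4.5 and 16.5, 11 and 17.2 TPM at E4.75 (log2 2.37 ± 0.52, adjusted p = 0.010). This was a call lost without E4.75 replicate 1 or 3 (adjusted p = 0.054 and 0.057). Smo was the other riser of 7 tested hedgehog and Notch genes, and it lost its call under quantile normalization (log2 0.28).

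Among 27 listed developmental regulators, the class often held in a bivalent state, 11 passed the filter, 6 rose and none fell (median 1.37). Over all genes 15.2% rose and 9.16% fell. Of the 11, 3 were listed at 0 in every E4.5 library and passed through E4.75 alone; among the 6 genes above 0 in every library 2 rose. Mixl1 (chromosome 1, 180693043 to 180697034), a homeobox gene of primitive streak and endoderm, was 4.67, 0 and 0 TPM at E4.5 and 82.6, 62.5 and 63.9 TPM at E4.75 (log2 difference 5.30 ± 0.69, adjusted p = 0.0011). The E4.5 values differed among themselves, while the E4.75 libraries were close together. Mixl1 was 1.61 ± 0.688 TPM in Epi of E4.75 and 30.8 ± 11.3 TPM and 187 ± 15.6 TPM in PrE of E5.0 and E5.25. Gsc and Lhx1 are given above. Msx1 (3.39 ± 1.58 TPM against listed at 0, adjusted p = 0.0035) and Eomes (59.2 ± 4.9 against 28.1 ± 11.1 TPM, log2 1.13 ± 0.31, adjusted p = 0.028) were among the others, and Foxa1 the sixth. Eomes, a T-box gene, lost its call without E4.5 replicate 3 (log2 0.77) or E4.75 replicate 1, 2 or 3 (adjusted p = 0.094, 0.089 and 0.066), and Msx1 under quantile normalization (0.068).

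**Figure D3:**
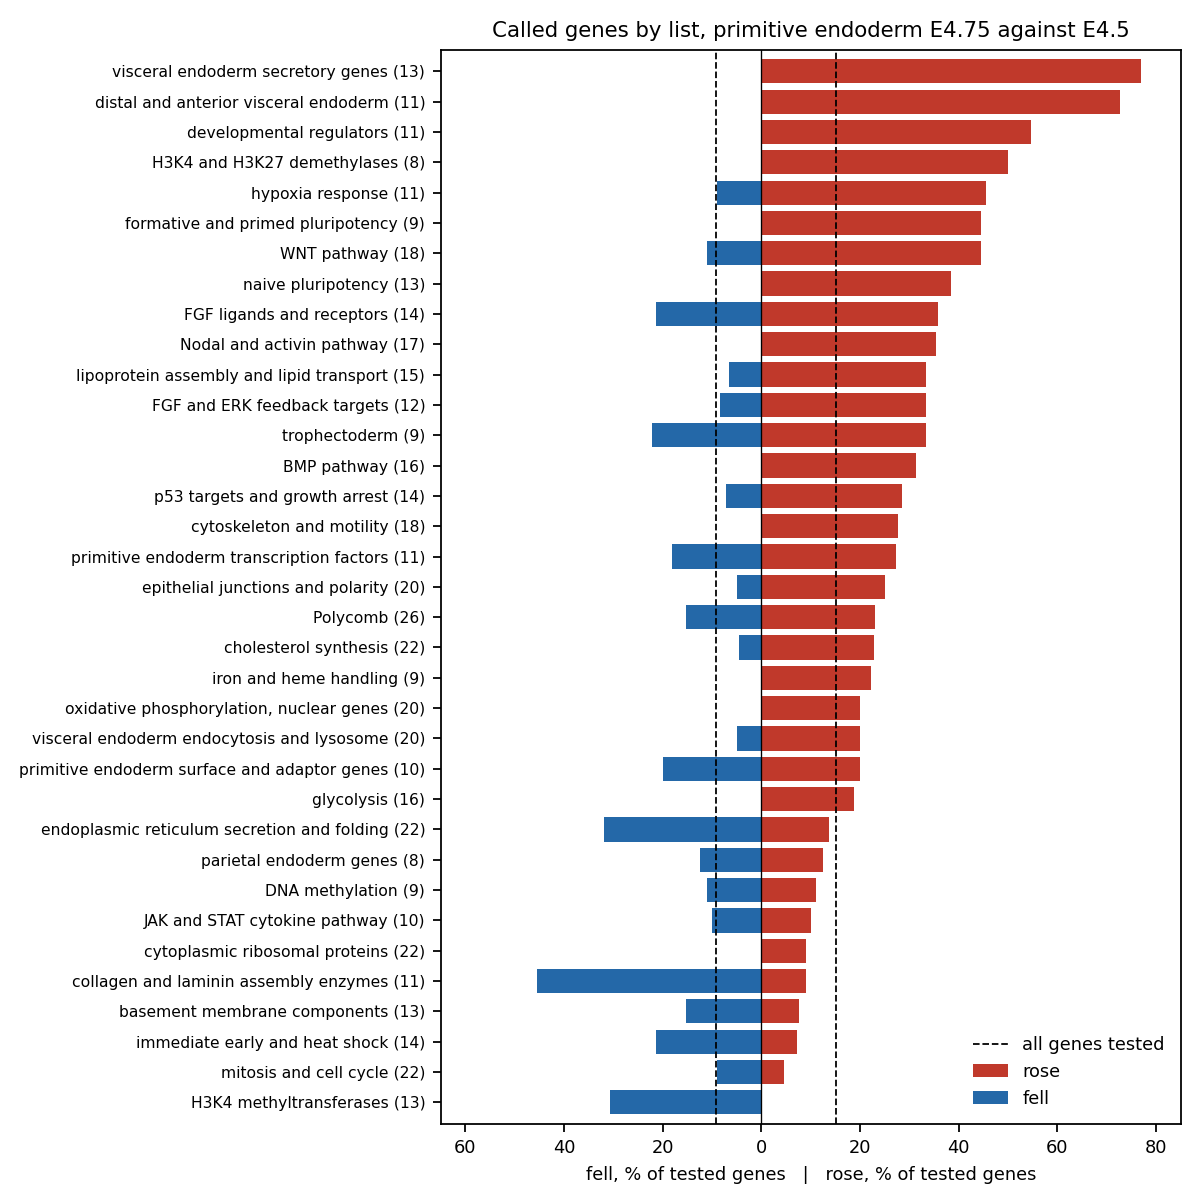
Share of the tested genes of 35 lists (those with at least 8 tested genes, without the lists added after values were seen) that rose (right, red) or fell (left, blue) in primitive endoderm from E4.5 to E4.75, with dashed lines at the shares over all 10873 genes (15.2% and 9.16%) and the number tested beside each name. The visceral endoderm secretory and the distal and anterior visceral endoderm lists reach farthest right, with 10 of 13 and 8 of 11 genes.

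In the lists of matrix assembly enzymes and of endoplasmic reticulum genes more members fell than rose, and P4hb is in both lists. P4hb, the beta subunit of prolyl 4-hydroxylase and a protein disulfide isomerase, was 6175, 6484 and 6601 TPM at E4.5 and 1173, 1193 and 1221 TPM at E4.75 (log2 difference -2.42 ± 0.05, adjusted p = 9.0e-07), the largest fall in TPM among the genes named here. Of 11 tested enzymes of collagen and laminin assembly 5 fell and 1 rose, with a median of -0.43. Over all genes 9.16% fell and 15.2% rose. P4ha2, an alpha subunit of the same enzyme, was 178, 115 and 107 TPM at E4.5 and 25.6, 19.1 and 23.2 TPM at E4.75 (log2 -2.48 ± 0.23, adjusted p = 2.4e-04). The lysyl hydroxylase gene Plod3 was 45.8 ± 4.43 against 132 ± 41.6 TPM (log2 -1.45 ± 0.25, adjusted p = 0.0037). Plod1 (17.1 ± 3.41 against 40.9 ± 6.97 TPM, log2 -1.21 ± 0.25, adjusted p = 0.0078) fell as well, with log2 -0.96 when Rn45s was kept and adjusted p = 0.17 when all 67 libraries shared 1 estimate of spread. Crtap was the fifth, a call lost without E4.5 replicate 2 (log2 -0.86), with Rn45s kept (-0.86) and under quantile normalization (-0.97). P4ha1 (90.2 ± 2.77 against 123 ± 19.9 TPM, log2 -0.43) and the collagen chaperone gene Serpinh1 (181 ± 33.3 against 118 ± 15 TPM, log2 0.61) were not called.

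Of 13 basement membrane components 2 fell and 1 rose (median -0.13), against 9.16% falling and 15.2% rising over all genes. The laminin chain gene Lamb1 was 166, 129 and 180.5 TPM at E4.5 and 48.1, 42.8 and 46.9 TPM at E4.75 (log2 -1.75 ± 0.16, adjusted p = 2.0e-04). Lama1 was 65.4, 66.5 and 77.5 TPM at E4.5 and 33.6, 30.8 and 29.1 TPM at E4.75 (log2 -1.13 ± 0.16, adjusted p = 0.0015), a call lost with Rn45s kept (log2 -0.88) and under quantile normalization (-0.93). Col18a1 was 5.56 ± 0.948 against 0.296 ± 0.513 TPM (log2 2.40 ± 0.38, adjusted p = 0.0029). The collagen IV gene Col4a1 (127 ± 10.5 against 92 ± 10.0 TPM, log2 0.46) and Sparc, a collagen-binding glycoprotein (1328 ± 18.2 against 2596 ± 105 TPM, log2 -0.97 ± 0.06, adjusted p = 2.8e-05), were under the minimum difference, although the 3 libraries of each age did not overlap for Sparc.

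In the endoplasmic reticulum list 7 of 22 genes fell and 3 rose (median -0.15), against 9.16% and 15.2% of all genes. Sec61a1, the pore subunit of the protein translocation channel, was 1769.8, 1995 and 2102 TPM at E4.5 and 217, 203 and 201 TPM at E4.75 (log2 difference -3.23 ± 0.08, adjusted p = 1.8e-06). Herpud1, a gene of the degradation machinery, was 821, 683 and 793 TPM at E4.5 and 138, 125 and 126 TPM at E4.75 (log2 difference -2.55 ± 0.10, adjusted p = 4.0e-06). Dnajb9, an HSP70 co-chaperone (19 ± 2.18 against 83.4 ± 11.8 TPM, log2 -2.07 ± 0.19, adjusted p = 2.1e-04), and Xbp1, a transcription factor of the unfolded protein response (292 ± 10.5 against 694 ± 94.6 TPM, log2 -1.24 ± 0.11, adjusted p = 1.6e-04), also fell, the latter at log2 -0.98 when Rn45s was kept. Syvn1, the ubiquitin ligase of the same degradation pathway, is outside the list and was 466, 606 and 455 TPM at E4.5 and 34.2, 37.5 and 36.5 TPM at E4.75 (log2 -3.77 ± 0.14, adjusted p = 3.6e-06). Sec61b, a small subunit of the same channel, rose (979 ± 19.4 against 412 ± 47.3 TPM, log2 1.25 ± 0.09, adjusted p = 8.4e-05). The lectin chaperone gene Canx (262 ± 22.2 against 58 ± 22.8 TPM, log2 2.23 ± 0.27, adjusted p = 8.5e-04) and the disulfide isomerase gene Pdia3 (992 ± 53.5 against 330.3 ± 78 TPM, log2 1.61 ± 0.17, adjusted p = 4.5e-04) rose as well. The 2 channel subunits thus moved in opposite directions in these libraries. Manf (1008 ± 8.66 against 1237 ± 26.8 TPM, log2 -0.29) was not called.

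Of 20 endocytosis and lysosome genes 4 rose and 1, Cubn, fell (median 0.17), a share of calls close to the 24.4% over all genes. Clic6, a chloride channel family gene, rose (63.3 ± 8.49 against 9.65 ± 3.19 TPM, log2 2.64 ± 0.29, adjusted p = 5.7e-04). The zinc transporter gene Slc39a8 (36.8 ± 3.78 against 10.2 ± 4.58 TPM, log2 1.83 ± 0.34, adjusted p = 0.0054) and Lamp1, a lysosomal membrane protein gene (1433 ± 65.8 against 611 ± 66.2 TPM, log2 1.23 ± 0.09, adjusted p = 8.4e-05), rose. The protease gene Ctsh, the fourth, was 421 ± 32.6 against 208 ± 35.6 TPM (log2 1.03) and fell below the minimum difference without E4.5 replicate 2 (0.90) or E4.75 replicate 1 (0.96). The cathepsin gene Ctsl was 1928 ± 13.5 against 3483 ± 202 TPM (log2 -0.85). Ferritin genes Ftl1 (27749 ± 349 against 26008 ± 2871 TPM) and Fth1 (14023 ± 90.1 against 9602 ± 512 TPM) had the highest means at both ages and neither was called (log2 0.10 and 0.55); processed copies in the genome make their levels uncertain. Lipoprotein and lipid transport genes rose in 5 and fell in 1 of 15, with 3 of the risers and the faller called in every leave-one-out fit. Mttp, which loads lipid onto apolipoprotein B, was 25.7, 6.91 and 24.6 TPM at E4.5 and 78.9, 64.1 and 71.3 TPM at E4.75 (log2 2.04 ± 0.46, adjusted p = 0.012). Soat1, a cholesterol esterifying enzyme, fell (72.9 ± 2.66 against 164 ± 22.9 TPM, log2 -1.15 ± 0.13, adjusted p = 6.7e-04), although at log2 -0.89 with Rn45s kept and -0.93 under quantile normalization.

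Of 22 cholesterol synthesis genes 5 rose and 1 fell, with a median of -0.16, against 15.2% and 9.16% of all genes. Of the 5 risers 2 kept the call in every leave-one-out fit. Insig1, the sterol-sensing retention protein, was 155, 121 and 113 TPM at E4.5 and 407, 380.2 and 349.5 TPM at E4.75 (log2 1.55 ± 0.14, adjusted p = 1.9e-04). Fdft1, squalene synthase, fell (1177, 1212 and 1096 TPM at E4.5 and 328, 335 and 323 TPM at E4.75; log2 difference -1.82 ± 0.07, adjusted p = 4.0e-06). Hmgcs1 was 66, 10.5 and 50.4 TPM at E4.5 and 182, 147 and 149.8 TPM at E4.75 (log2 2.23 ± 0.60, adjusted p = 0.024), with adjusted p = 0.064 without E4.75 replicate 1. The enzyme genes Msmo1 (602 ± 6.14 against 950.3 ± 112 TPM, log2 -0.65) and Fdps (484 ± 12.1 against 628 ± 92.6 TPM, log2 -0.36) were not called. Sqle and Tm7sf2 were also among the risers.

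Of 16 glycolysis genes 3 rose and none fell (median -0.06). Over all genes 15.2% rose and 9.16% fell, and each list in this paragraph is read against these shares. Hk2, a hexokinase, was 2.97, 4.99 and 3.9 TPM at E4.5 and 34.6, 29.2 and 26.9 TPM at E4.75 (log2 2.67 ± 0.32, adjusted p = 8.3e-04). The glucose transporter gene Slc2a1 was 81.3 ± 7.21 against 35.5 ± 7.81 TPM (log2 1.19 ± 0.20, adjusted p = 0.0035). Slc2a3, a second transporter, was 216 ± 23.2 against 105 ± 24.2 TPM (log2 1.06 ± 0.18, adjusted p = 0.0038), at log2 0.87 without E4.5 replicate 2 and 0.97 without E4.75 replicate 1. Aldoa (2461 ± 68.1 against 3948 ± 355 TPM, log2 -0.68), Eno1 (2268 ± 66.4 against 4079 ± 257 TPM, log2 -0.84) and Gapdh (1346 ± 41.1 against 2291 ± 323 TPM, log2 -0.76), enzymes of the pathway, were lower in every E4.75 library without passing. Hypoxia response genes rose in 5 of 11 tested cases and fell in 1, against 15.2% and 9.16% of all genes. Of the 5 risers 3 lost no call in the leave-one-out fits that tested them, but none was called in all 6. Of the 11, 3 were under 1 TPM in every E4.5 library, and among the 6 genes above 0 in every library 3 rose and 1 fell. Hif1a, the oxygen-regulated factor gene itself, was 200.1, 154 and 204 TPM at E4.5 and 70.5, 54 and 54.7 TPM at E4.75 (log2 -1.62 ± 0.17, adjusted p = 3.7e-04). Vegfa, a growth factor gene it activates, was 4.23 ± 0.841 against 0.207 ± 0.128 TPM (log2 2.11 ± 0.31, adjusted p = 0.0019). Adm, which encodes adrenomedullin, was listed at 0 and then 2.68, 5.26 and 2.97 TPM (adjusted p = 0.0019). Of 20 nuclear genes of oxidative phosphorylation 4 rose and none fell. All were genes of small respiratory chain subunits. Cox7a2 was 944 ± 36.4 against 244 ± 22.2 TPM (log2 1.95 ± 0.09, adjusted p = 8.2e-06) and Cox6c 1539 ± 99.4 against 489 ± 29.2 TPM (log2 1.65 ± 0.08, adjusted p = 1.0e-05). The others were Cox5b (1130.4 ± 61.5 against 471 ± 41.9 TPM, log2 1.26 ± 0.09, adjusted p = 5.4e-05) and Ndufa4 (1351 ± 42.8 against 389 ± 71.5 TPM, log2 1.81 ± 0.13, adjusted p = 7.7e-05). The ATP synthase gene Atp5b was 1982 ± 18.4 against 3721 ± 163 TPM (log2 -0.91) and was called lower under quantile normalization (-1.02). Among 22 cytoplasmic ribosomal protein genes 2 rose, Rpl37 (996 ± 110.3 against 194 ± 7.25 TPM, log2 2.35 ± 0.10, adjusted p = 5.2e-06) and Rpl32 (3379 ± 175 against 1579 ± 134 TPM, log2 1.10 ± 0.08, adjusted p = 6.9e-05; log2 0.95 under quantile normalization). With genes ranked by exon length into 4 equal bins, 20.4% rose and 6.27% fell in the shortest bin, of up to 2544 bases. In the other bins 13.1% to 13.4% rose and 9.88% to 10.5% fell. The part of transcript length in these calls was not tested.

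Cytoskeletal genes rose in 5 of 18 cases and fell in none (median 0.05). Over all genes 15.2% rose and 9.16% fell, and each list in this paragraph is read against these shares. Of the 18, 1 was listed at 0 in every E4.5 library and passed the filter through E4.75 alone. Actb, cytoplasmic beta-actin, was 1784, 1663 and 1616 TPM at E4.5 and 10231, 9323 and 9219 TPM at E4.75 (log2 difference 2.51 ± 0.07, adjusted p = 1.8e-06). Tmsb4x, thymosin beta 4, was 1.52, 2.79 and 1.57 TPM at E4.5 and 103, 95.8 and 106 TPM at E4.75 (log2 difference 5.14 ± 0.28, adjusted p = 2.2e-05). Its relative Tmsb10 was 2046 ± 76.3 against 555 ± 53.5 TPM (log2 1.88 ± 0.08, adjusted p = 6.7e-06). The keratin genes Krt18 (187 ± 8.06 against 64.8 ± 12 TPM, log2 1.53 ± 0.15, adjusted p = 2.9e-04) and Krt19 (4.43 ± 0.461 TPM against listed at 0, adjusted p = 6.7e-04) also rose. Cofilin, Cfl1 (4181 ± 41.8 against 6602 ± 565 TPM, log2 -0.66), and profilin, Pfn1 (3543 ± 158 against 4841 ± 443 TPM, log2 -0.45), did not pass. Of 20 junction and polarity genes 5 rose and 1 fell, and 2 of the risers lost the call in some leave-one-out fit. Of the 20, 1 was likewise listed at 0 in every E4.5 library. F11r, the junctional adhesion molecule A, fell (274, 486 and 387 TPM at E4.5 and 82.9, 79.3 and 75.3 TPM at E4.75; log2 -2.22 ± 0.20, adjusted p = 2.0e-04). Epcam (226 ± 3.42 against 91.9 ± 12.7 TPM, log2 1.30 ± 0.12, adjusted p = 2.6e-04), the membrane linker gene Ezr (209 ± 8.91 against 84.5 ± 14.1 TPM, log2 1.31 ± 0.14, adjusted p = 4.0e-04) and N-cadherin, Cdh2 (4.4 ± 0.358 TPM against listed at 0, adjusted p = 6.5e-04), rose. Cldn6, a claudin of early endoderm, was 1939.7 ± 26 against 2533 ± 215 TPM (log2 -0.38).

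Of 22 mitosis and cell cycle genes 1 rose and 2 fell. Over all genes 15.2% rose and 9.16% fell, and each list in this paragraph is read against these shares. Of the 22, 1 was under 1 TPM in every E4.5 library. Of the 3 D-type cyclins 1 rose and 1 fell, with Ccnd1 at 6.77 ± 0.612 against 0.202 ± 0.351 TPM (log2 2.73 ± 0.35, adjusted p = 0.0011). Ccnd2 was 2.71 ± 0.76 against 12 ± 1.16 TPM (log2 -1.82 ± 0.37, adjusted p = 0.0075), at adjusted p = 0.050 and 0.055 without E4.75 replicate 1 or 3. Ccnd3 was 93 ± 3.41 against 116 ± 6.91 TPM (log2 -0.31) and not called. Ccnd1 was 40.4 ± 3.83 TPM in Epi of E4.75. Ccnb1, the mitotic cyclin B1, was 589 ± 28.4 against 1254 ± 142 TPM (log2 -1.08 ± 0.09, adjusted p = 1.9e-04; log2 -0.82 with Rn45s kept). Among 14 tested p53 targets and growth arrest genes 4 rose and 1 fell. Of the 14, 1 was listed at 0 in every E4.5 library and passed the filter through E4.75 alone. Cdkn1a, the cyclin kinase inhibitor p21, was 349, 430.3 and 333 TPM at E4.5 and 67.5, 72.6 and 63.9 TPM at E4.75 (log2 difference -2.42 ± 0.13, adjusted p = 1.6e-05). Phlda3, an AKT inhibitor gene, was 8.19, 5.51 and 5.76 TPM at E4.5 and 73.9, 59.3 and 63.4 TPM at E4.75 (log2 difference 3.16 ± 0.25, adjusted p = 1.2e-04). Cdkn1c, the inhibitor p57, was listed at 0 at E4.5 and was 7.39, 7.31 and 8.36 TPM at E4.75 (adjusted p = 3.1e-04). Gadd45a, a growth arrest gene, was 27.3 ± 2.06 against 5.13 ± 2.06 TPM (log2 2.26 ± 0.36, adjusted p = 0.0028). Of 14 immediate early and heat shock genes 3 fell and 1 rose. Zfp36, an mRNA decay factor gene, fell with Egr1 and Atf3 (22.9 ± 1.23 against 75.6 ± 15.6 TPM, log2 -1.66 ± 0.20, adjusted p = 8.3e-04). Hspe1, a mitochondrial chaperonin gene, rose (2036 ± 58.2 against 951 ± 74.8 TPM, log2 1.10 ± 0.07, adjusted p = 4.8e-05; log2 0.91 under quantile normalization).

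Lists of H3K4 methyltransferase genes and of H3K4 and H3K27 demethylase genes changed in different directions, against 15.2% of all genes rising and 9.16% falling. Bivalent chromatin carries H3K4me3 and H3K27me3, and the lists do not separate genes by the methylation state they act on. None of 13 H3K4 methyltransferase genes rose and 4 fell (median -0.82). Hcfc1, a cofactor of these complexes, fell (38.4, 27.7 and 26.9 TPM at E4.5 and 10.4, 11.2 and 9.45 TPM at E4.75; log2 -1.48 ± 0.26, adjusted p = 0.0045). The catalytic subunit genes Setd1a (3.36 ± 0.768 against 12.4 ± 2.62 TPM, log2 -1.61 ± 0.37, adjusted p = 0.013) and Setd1b (1.39 ± 0.176 against 5.22 ± 0.696 TPM, log2 -1.38 ± 0.34, adjusted p = 0.017) and the core subunit gene Rbbp5 (12.1 ± 0.787 against 40.9 ± 25.9 TPM, log2 -1.5 ± 0.42, adjusted p = 0.029) were called too. Those calls were lost without E4.75 replicate 2 or 3 for Setd1a (adjusted p = 0.084 and 0.072) and without E4.75 replicate 1, 2 or 3 for Setd1b (0.14, 0.17 and 0.14) and Rbbp5 (0.072, 0.071 and 0.082). Ash2l (174 ± 6.5 against 254 ± 43 TPM, log2 -0.53) and Dpy30 (365 ± 1.5 against 209.7 ± 6.11 TPM, log2 0.80), shared subunits, were not called, though Dpy30 was with Rn45s kept (log2 1.06). Among 8 tested demethylase genes 4 rose and none fell (median 1.33). The H3K27 demethylase gene Kdm6b was 4.7, 0.163 and 1.31 TPM at E4.5 and 35.1, 34.2 and 33.4 TPM at E4.75 (log2 difference 3.83 ± 0.58, adjusted p = 0.0023). The H3K4 demethylase gene Kdm5b rose (5.13, 1.1 and 4.68 TPM at E4.5 and 20.0, 22.5 and 20.1 TPM at E4.75; log2 2.38 ± 0.49, adjusted p = 0.0079). Kdm1a, another H3K4 demethylase gene, was 22.4 ± 1.58 against 6.72 ± 1.36 TPM (log2 1.61 ± 0.30, adjusted p = 0.0054). Kdm6a, on the X chromosome, was 6.53 ± 0.384 against 1.87 ± 1.28 TPM (log2 1.48 ± 0.43, adjusted p = 0.033), a call lost without E4.5 replicate 3 (adjusted p = 0.053) or E4.75 replicate 1, 2 or 3 (0.17, 0.16 and 0.17).

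Polycomb genes moved both ways, with 6 of 26 tested rising and 4 falling (median 0.40), against 15.2% and 9.16% of all genes. Of the called Polycomb genes, 3 risers and 2 fallers lost the call in at least 1 leave-one-out fit. Kdm2b, which recruits a variant PRC1 to unmethylated CpG islands, was 1.95, 2.14 and 3.37 TPM at E4.5 and 18.5, 14 and 15.3 TPM at E4.75 (log2 difference 2.29 ± 0.37, adjusted p = 0.0029). Pcgf6, a subunit gene of another variant PRC1, was 75.5 ± 9.89 against 22.2 ± 11.5 TPM (log2 1.86 ± 0.40, adjusted p = 0.010). Phc3, a polyhomeotic subunit (1.21 ± 0.325 against 16.1 ± 5.79 TPM, log2 -2.91 ± 0.42, adjusted p = 0.0018), and Cbx7, a chromodomain subunit (18 ± 2.57 against 53.4 ± 4.82 TPM, log2 -1.52 ± 0.20, adjusted p = 0.0012), fell. Ezh2, the H3K27 methyltransferase gene, was 28.3, 10.6 and 7.58 TPM at E4.5 and 41.7, 38 and 42.7 TPM at E4.75 (log2 1.55 ± 0.44, adjusted p = 0.031), with adjusted p = 0.058 and 0.065 without E4.5 replicate 2 or 3 and 0.091, 0.074 and 0.090 without E4.75 replicate 1, 2 or 3. Eed, its partner in PRC2, was 97.9 ± 5.8 against 133 ± 31.6 TPM (log2 -0.41). Of 9 DNA methylation genes Dnmt3b, a de novo methyltransferase, rose (79.5, 27.3 and 54.4 TPM at E4.5 and 148, 146 and 144 TPM at E4.75; log2 1.55 ± 0.34, adjusted p = 0.011). Tet2, an oxidase of methylcytosine, fell (1.15 ± 0.189 against 4.82 ± 1.14 TPM, log2 -1.42 ± 0.35, adjusted p = 0.016; adjusted p = 0.13, 0.17 and 0.15 without E4.75 replicate 1, 2 or 3). Dnmt3l, the cofactor of de novo methylation, was 113 ± 7.89 against 209 ± 19.5 TPM (log2 -0.88).

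The largest falls held stress response genes, and 4 lists were added after their values were seen. In the amino acid response, the eIF2-ATF4 programme that cells use when amino acids run short or proteins misfold, 12 of 19 tested genes fell and 1 rose (20 listed, median -1.5). As the list was drawn from these values, the count describes it and is no test. Of the fallen genes, Atf4 and Ddit3 are also in the endoplasmic reticulum list and Atf3 in that of immediate early genes. Chac1, a glutathione-degrading enzyme gene, was 125, 123 and 146 TPM at E4.5 and 1.74, 1.62 and 1.3 TPM at E4.75 (log2 difference -5.70 ± 0.25, adjusted p = 6.9e-06). Nupr1, a stress-induced chromatin protein gene, was 181, 210.5 and 183 TPM at E4.5 and 4.47, 11.4 and 6.55 TPM at E4.75 (log2 difference -4.59 ± 0.30, adjusted p = 4.8e-05). For both genes the groups were far apart and did not overlap. Asns, asparagine synthetase, was 616, 531 and 597 TPM at E4.5 and 119, 123 and 118 TPM at E4.75 (log2 difference -2.26 ± 0.09, adjusted p = 4.4e-06). The serine synthesis gene Psat1 was 908, 966 and 873 TPM at E4.5 and 118, 127 and 127 TPM at E4.75 (log2 difference -2.87 ± 0.08, adjusted p = 1.8e-06). Atf4, the central transcription factor gene, fell too (97.5 ± 8.58 against 250.3 ± 29.5 TPM, log2 -1.35 ± 0.13, adjusted p = 2.4e-04). Its partner and target gene Ddit3 was 24.7 ± 1.89 against 73.2 ± 20.8 TPM (log2 -1.5 ± 0.23, adjusted p = 0.0021). Atf3, a related factor gene, was 8.9 ± 2.06 against 57.3 ± 3.88 TPM (log2 -2.58 ± 0.24, adjusted p = 2.6e-04). The pseudokinase gene Trib3, which feeds back on ATF4, was 8.4 ± 1.6 against 66.7 ± 12.6 TPM (log2 -2.85 ± 0.25, adjusted p = 2.0e-04). The amino acid transporter gene Slc7a1 was 3.26 ± 0.136 against 93.7 ± 51.5 TPM (log2 -4.26 ± 0.5, adjusted p = 7.5e-04). Both mitochondrial folate enzyme genes fell, with Mthfd2 at 26.2 ± 2.84 against 159 ± 35.5 TPM (log2 -2.54 ± 0.19, adjusted p = 8.6e-05). Shmt2 was 95.5 ± 3.63 against 428 ± 87.4 TPM (log2 -2.13 ± 0.15, adjusted p = 6.2e-05). Slc3a2, the twelfth, was under the minimum difference without E4.5 replicate 3 (log2 -0.94) and with Rn45s kept (-0.82). Phgdh (463 ± 28 against 758 ± 24.2 TPM, log2 -0.71) was lower without passing.

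Of 10 aminoacyl-tRNA synthetase genes, also chosen after their values were seen, 8 fell and none rose (median -1.17), and 5 of the 8 kept the call in every leave-one-out fit. They included Cars (17.9 ± 3.74 against 93.1 ± 13.4 TPM, log2 -2.32 ± 0.21, adjusted p = 2.2e-04), Sars (155 ± 4.17 against 479 ± 24 TPM, log2 -1.62 ± 0.08, adjusted p = 1.3e-05) and Gars (207 ± 13.4 against 531 ± 40.2 TPM, log2 -1.36 ± 0.09, adjusted p = 5.5e-05), which charge cysteine, serine and glycine. Aars (47.7 ± 8.89 against 84.5 ± 10.4 TPM, log2 -0.82) and Eprs were not called. Of 11 clock genes 3 fell and none rose (median -0.80). The repressor gene Per1 was 130.2, 132 and 179 TPM at E4.5 and 3.01, 3.22 and 3.87 TPM at E4.75 (log2 difference -5.07 ± 0.23, adjusted p = 9.5e-06). Nr1d1, a nuclear receptor gene of the clock, was 2.46 ± 0.987 against 43.5 ± 16.8 TPM (log2 -3.65 ± 0.42, adjusted p = 6.5e-04), and Cry2 1.22 ± 0.431 against 25 ± 18.1 TPM (log2 -3.34 ± 0.55, adjusted p = 0.0031). Epi levels of these genes were lower at E4.75 as well. In Epi over the same interval Chac1 went from 239 ± 23.8 TPM to 1.51 ± 0.511 TPM, Asns from 1415 ± 93.1 TPM to 237 ± 12.2 TPM and Per1 from 72.8 ± 34.8 TPM to 2.49 ± 0.632 TPM. The interaction called 3 of the 19 amino acid response genes and none of the synthetase or clock genes.

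The 250 bases before the start of the amino acid response genes were searched for TGATGNAA, the composite element that C/EBP and ATF factors bind, on both strands. It was in 4 of the 12 fallen genes of that list and in 170 of 8721 tested genes with a promoter in RefSeq (1.95%), 2.38% of the risen and 2.84% of the fallen. A match is a description of the letters and not a site of binding. Those 4 promoters are shown 5′ to 3′ on the gene's strand, as RefSeq gives them on GRCm38.p6, because their genes include the largest falls, with the match or its reverse complement in capitals.
Chac1 (chr2:119350992-119351241, plus strand): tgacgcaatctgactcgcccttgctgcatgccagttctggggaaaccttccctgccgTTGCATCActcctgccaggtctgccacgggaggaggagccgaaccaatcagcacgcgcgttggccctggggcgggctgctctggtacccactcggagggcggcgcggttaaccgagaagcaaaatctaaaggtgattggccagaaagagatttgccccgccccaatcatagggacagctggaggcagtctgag
Nupr1 (chr7:126625471-126625720, minus strand): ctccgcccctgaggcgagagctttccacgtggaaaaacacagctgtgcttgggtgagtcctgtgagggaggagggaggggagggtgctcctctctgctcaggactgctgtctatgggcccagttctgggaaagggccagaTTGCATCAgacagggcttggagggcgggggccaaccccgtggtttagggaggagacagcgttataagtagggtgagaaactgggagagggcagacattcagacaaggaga
Asns (chr6:7693210-7693459, minus strand): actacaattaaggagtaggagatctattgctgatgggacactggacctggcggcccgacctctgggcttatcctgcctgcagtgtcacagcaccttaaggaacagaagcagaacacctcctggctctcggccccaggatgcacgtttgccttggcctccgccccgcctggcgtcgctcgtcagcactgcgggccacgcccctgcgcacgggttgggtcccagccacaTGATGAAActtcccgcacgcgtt
Atf3 (chr1:191183334-191183583, minus strand): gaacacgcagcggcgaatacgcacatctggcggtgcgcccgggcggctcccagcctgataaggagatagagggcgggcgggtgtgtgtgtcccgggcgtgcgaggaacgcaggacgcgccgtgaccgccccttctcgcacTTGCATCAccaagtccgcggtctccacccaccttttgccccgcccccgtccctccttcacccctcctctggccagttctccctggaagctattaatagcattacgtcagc
The first base of the match lay 193 bases before the start in Chac1, 110 in Nupr1 and Atf3 and 23 in Asns. The cyclic AMP response element TGACGTCA was in none of the 12 and in 2.92% of the 8721, and the E-box CACGTG in Nupr1 alone of the 12 and in 8.83%.

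Histone H3 and H4 genes, the last of the added lists, fell in 8 and rose in 4 of 20 tested cases (22 listed). Of these, 5 and 2 lost no call in the leave-one-out fits that tested them, and 5 and 1 were called in all 6. H3c13, H3c14 and H3c15 are near-identical copies whose reads cannot be split with certainty. They were 433, 1161 and 720.0 TPM at E4.5 and 41.5, 39.3 and 48.1 TPM at E4.75 for H3c13 (log2 -4.03 ± 0.32, adjusted p = 1.1e-04), with log2 -4.62 and -5.23 for H3c14 and H3c15. H4c14 was 0.577 ± 0.69 against 59.1 ± 40.6 TPM (log2 -5.13 ± 0.57, adjusted p = 5.5e-04) and H3c1 3.78 ± 0.682 against 52.9 ± 28 TPM (log2 -3.38 ± 0.41, adjusted p = 8.2e-04). H4c4, in contrast, was 25.6, 39.2 and 11.2 TPM at E4.5 and 342, 399.7 and 389 TPM at E4.75 (log2 difference 4.0 ± 0.39, adjusted p = 2.9e-04). Most histone transcripts lack a poly(A) tail, and how they entered these libraries was not tested.

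Other large changes fell outside the lists. Among the genes of largest difference without overlap, Rpph1, the RNA of ribonuclease P, was 1.72, 5.84 and 3.45 TPM at E4.5 and 225, 224 and 240.1 TPM at E4.75 (log2 difference 5.72 ± 0.33, adjusted p = 2.8e-05). Arglu1, a splicing cofactor gene, was 4.48, 0.298 and 4.45 TPM at E4.5 and 197, 164 and 154 TPM at E4.75 (log2 difference 5.67 ± 0.55, adjusted p = 3.0e-04). The cytoplasmic superoxide dismutase gene Sod1 was 169.8, 204 and 211 TPM at E4.5 and 4318, 4419 and 4243 TPM at E4.75 (log2 difference 4.47 ± 0.09, adjusted p = 9.0e-07). Their Epi levels were also higher at E4.75, at 165 ± 14.4 TPM, 256 ± 20.7 TPM and 4648 ± 113 TPM against 3.8 ± 0.319 TPM, 2.46 ± 0.884 TPM and 256 ± 9.57 TPM. Lrrc8a, a subunit of the volume-regulated anion channel, was 56.2 ± 5.78 against 1.05 ± 1.22 TPM (log2 4.97 ± 0.49, adjusted p = 3.2e-04). Trim71, an RNA-binding ubiquitin ligase gene, was 24.7 ± 5.51 against 0.19 ± 0.299 TPM (log2 4.44 ± 0.40, adjusted p = 2.0e-04). Igfbp2, an insulin-like growth factor binding protein gene, was 1.28, 1.03 and 0 TPM at E4.5 and 120.1, 153 and 141 TPM at E4.75 (log2 difference 6.37 ± 0.39, adjusted p = 3.3e-05). It was 805 ± 68.2 TPM in Epi and 9.43 ± 1.11 TPM in PrE of E5.0. Among the largest falls was Mob1a, a Hippo kinase activator gene (599, 564 and 474 TPM at E4.5 and 19.7, 21.6 and 20.1 TPM at E4.75; log2 difference -4.66 ± 0.13, adjusted p = 1.8e-06). Aph1a, a gamma-secretase subunit gene, was 290.3, 259 and 267 TPM at E4.5 and 11.2, 14.2 and 12.8 TPM at E4.75 (log2 difference -4.31 ± 0.15, adjusted p = 3.6e-06). The prosaposin gene Psap was 4.22 ± 0.214 against 106 ± 28.7 TPM (log2 -4.32 ± 0.26, adjusted p = 3.4e-05). Wasf2, an actin nucleation regulator, fell too (18.4 ± 0.447 against 261 ± 25.3 TPM, log2 -3.75 ± 0.13, adjusted p = 3.6e-06). Sap130, a corepressor subunit, was 9.71 ± 0.937 against 186 ± 43.3 TPM (log2 -4.10 ± 0.22, adjusted p = 1.9e-05). Gata6os, the antisense transcript beside Gata6, was 54.6, 83.3 and 45.6 TPM at E4.5 and 2.64, 4.3 and 2.83 TPM at E4.75 (log2 difference -3.84 ± 0.34, adjusted p = 2.0e-04) while Gata6 overlapped between the ages. As the use of strand in the counting is not given in the sources used here, reads of the pair cannot be told apart with certainty. Serpina3m was listed at 0 in all 3 E4.75 libraries and was 28.7, 24.1 and 14.2 TPM at E4.5 (adjusted p = 2.1e-04).

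Genes at higher levels in epiblast need their Epi values beside them. Of the 1656 risen genes 197 (11.9%) were at least 3 times higher in Epi than in PrE at E4.75, and without them 1459 remained. Of the fallen genes 38 were that much higher in Epi of E4.5, leaving 958. Among genes above 0 in every library 1 of 7 naive pluripotency genes and 1 of 5 formative and primed genes rose. Among all 13 tested naive pluripotency genes 5 rose and none fell, and among 9 formative and primed genes 4 rose. Besides Tdgf1 and Fgf4 the former included Klf2 (1.7 ± 0.613 against 0.0364 ± 0.063 TPM, log2 1.36 ± 0.27, adjusted p = 0.0074; adjusted p = 0.76 under quantile normalization) and Sox2 (1.1 ± 0.105 TPM against listed at 0, adjusted p = 0.0087; 0.86). Their Epi levels at E4.75 were 6.56 ± 1.12 TPM and 6.69 ± 0.744 TPM. Pou5f1, which encodes OCT4, was 12.7, 0 and 13.1 TPM at E4.5 and 28.2, 30.8 and 31.6 TPM at E4.75, without overlap but not called (adjusted p = 0.093), and was called without E4.5 replicate 2 (log2 1.17, adjusted p = 0.0033). It was 161 ± 11 TPM in Epi of E4.75. Zfp42 (41 ± 3.16 against 56 ± 6.78 TPM, log2 -0.44) and Dppa5a (4701 ± 29.2 against 3979.9 ± 189 TPM, log2 0.24) were not called. Ifitm3, an interferon-induced membrane protein gene, rose from near 0 (63.3 ± 8.54 against 0.608 ± 1.05 TPM, log2 5.5 ± 0.49, adjusted p = 2.0e-04). Trh, the thyrotropin-releasing hormone gene, was 28.5 ± 1.38 against 0.596 ± 1.03 TPM (log2 4.39 ± 0.5, adjusted p = 6.3e-04). The phospholipase gene Pla2g1b was 49.8 ± 6.74 TPM against listed at 0 (adjusted p = 3.7e-05). These 3 genes were 236 ± 8.22 TPM, 175 ± 6.55 TPM and 290.4 ± 20.3 TPM in Epi, and listed at 0, at 0.275 ± 0.238 TPM and at 0.331 ± 0.326 TPM in PrE of E5.0. Whether epiblast RNA or cells took part in these levels was not tested.

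**Figure D4:**
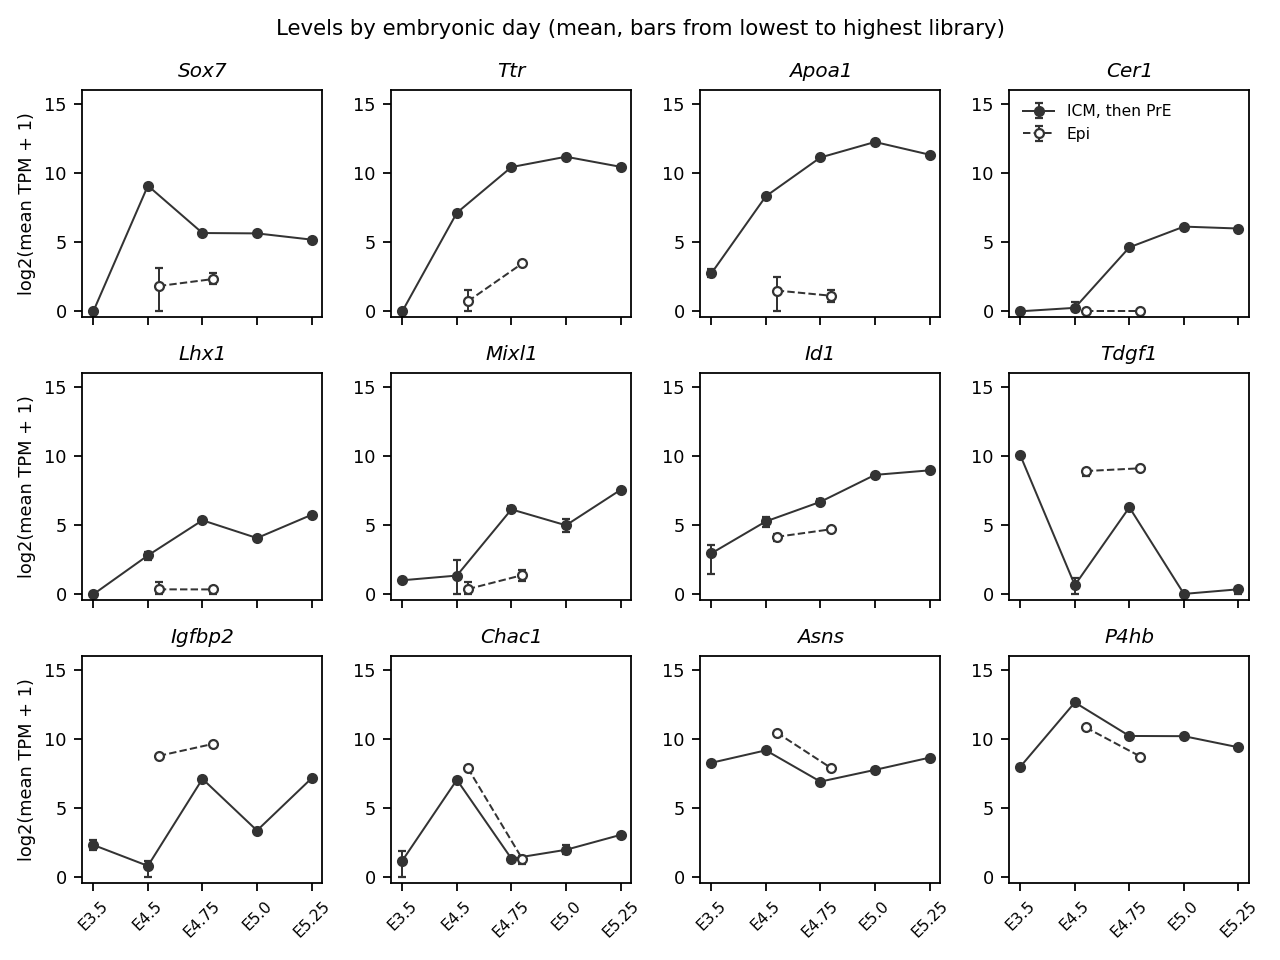
Mean TPM, as log2(mean TPM + 1), of 12 genes in inner cell mass of E3.5 and primitive endoderm of E4.5, E4.75, E5.0 and E5.25 (filled, line) and in epiblast of E4.5 and E4.75 (open), with bars from the lowest to the highest library (n = 3 per group). Ttr and Cer1 keep high levels at E5.0, Tdgf1 is near 0 in primitive endoderm of E5.0 after its E4.75 level, Sox7 stays below its E4.5 level, and Chac1 is lower at E4.75 in both lineages.

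Whether a change differed from that in the epiblast over the same interval was tested as an interaction over 12 libraries. Of 12658 genes 579 had a more positive change in PrE (4.57%) and 313 a more negative one (2.47%), together 7.05%. Without PrE E4.75 replicate 1, 2 or 3 these were 307, 304 and 312 and 176, 155 and 153, and without Epi E4.75 replicate 1, 2 or 3 they were 327, 323 and 325 and 158, 156 and 166. Under quantile normalization 459 were more positive and 481 more negative. Among the risen genes of PrE 231 were called more positive than in Epi and 20 more negative, and among the fallen 73 more negative and 15 more positive. Sox7 fell in PrE and was 2.55 ± 4.42 TPM and 4.05 ± 1.5 TPM in Epi (difference of changes -4.68 ± 0.89, interaction adjusted p = 0.0057). Apoa1 was 1.83 ± 2.49 TPM and 1.18 ± 0.636 TPM there (difference of changes 2.85 ± 0.65, interaction adjusted p = 0.017), and Mixl1 0.297 ± 0.514 TPM and 1.61 ± 0.688 TPM (difference of changes 4.25 ± 0.87, interaction adjusted p = 0.0092). Lhx1 (difference of changes 2.52 ± 0.57, interaction adjusted p = 0.017) and Otx2 (difference of changes 4.76 ± 0.91, interaction adjusted p = 0.0058) changed more positively in PrE. In Epi the Otx2 level moved from 133 ± 43.3 TPM to 72.7 ± 7.72 TPM. Kdm2b rose in PrE and went from 126 ± 30.1 TPM to 36.4 ± 3.44 TPM in Epi (difference of changes 4.03 ± 0.37, interaction adjusted p = 2.9e-05). Tmsb4x was the cytoskeletal gene called more positive (difference of changes 4.06 ± 0.24, interaction adjusted p = 7.6e-07). More negative changes were those of Cubn (difference of changes -3.93 ± 0.79, interaction adjusted p = 0.0082) and Lamb1 (difference of changes -3.08 ± 0.34, interaction adjusted p = 1.4e-04). Others were P4ha2 (difference of changes -5.06 ± 0.47, interaction adjusted p = 2.8e-05) and Cdkn1a (difference of changes -1.41 ± 0.29, interaction adjusted p = 0.0097). For Cubn, Lamb1 and P4ha2 the difference was larger than the fall in PrE, because the mean log2 level in Epi was higher at E4.75. For Cdkn1a it was lower there (log2 -1.02). The calls of Apoa1, Mixl1, Lhx1 and Otx2 were lost with a pseudocount of 0.1 TPM (adjusted p = 0.41, 0.20, 0.39 and 0.062), and that of Cdkn1a when all 67 libraries shared 1 estimate of spread (0.17). Apoa1 also missed the threshold without Epi E4.75 replicate 1 (0.051) or PrE E4.75 replicate 1, 2 or 3 (0.051, 0.053 and 0.051), and Lhx1 without Epi E4.75 replicate 2 (0.063) or PrE E4.75 replicate 1 or 2 (0.058 and 0.051).

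Dab2 was among the 5 genes of largest negative interaction (difference of changes -4.78 ± 0.33, interaction adjusted p = 2.6e-06) without a called change in PrE, where its Epi level went from 5.27 ± 2.7 TPM to 161 ± 7.04 TPM. The others were Sox7, P4ha2, Gata6os (interaction adjusted p = 2.0e-04) and Ly6a, a GPI-anchored surface antigen gene (2.08 ± 1.46 against 32.9 ± 11.3 TPM in PrE, 3.76 ± 2.85 TPM and 13.2 ± 2.6 TPM in Epi; difference of changes -5.23 ± 0.68, interaction adjusted p = 4.3e-04). The 5 most positive were Ube2dnl1 (interaction adjusted p = 6.7e-06), Ackr3 (interaction adjusted p = 4.3e-05), Nanog (interaction adjusted p = 4.4e-05), Cyp2b23 (difference of changes 5.91 ± 0.46, interaction adjusted p = 6.7e-06) and Jam2 (interaction adjusted p = 2.4e-05). Nanog went from 322 ± 72 TPM to 7.38 ± 2.64 TPM and Jam2 from 59.5 ± 2.23 TPM to 0.517 ± 0.32 TPM in Epi, and neither reached the minimum level in PrE. Ackr3, a scavenging chemokine receptor gene, rose in PrE from 0 in all libraries to 13, 13.5 and 8.26 TPM (adjusted p = 3.1e-04) while Epi went from 7.21 ± 3.47 TPM to 0.436 ± 0.359 TPM. The secretory list had 6 of 14 tested genes more positive and none more negative, the distal and anterior list 5 and 1 of 11, the surface and adaptor list none and 5 of 11, and the amino acid response list 2 and 1 of 19.

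**Figure D5:**
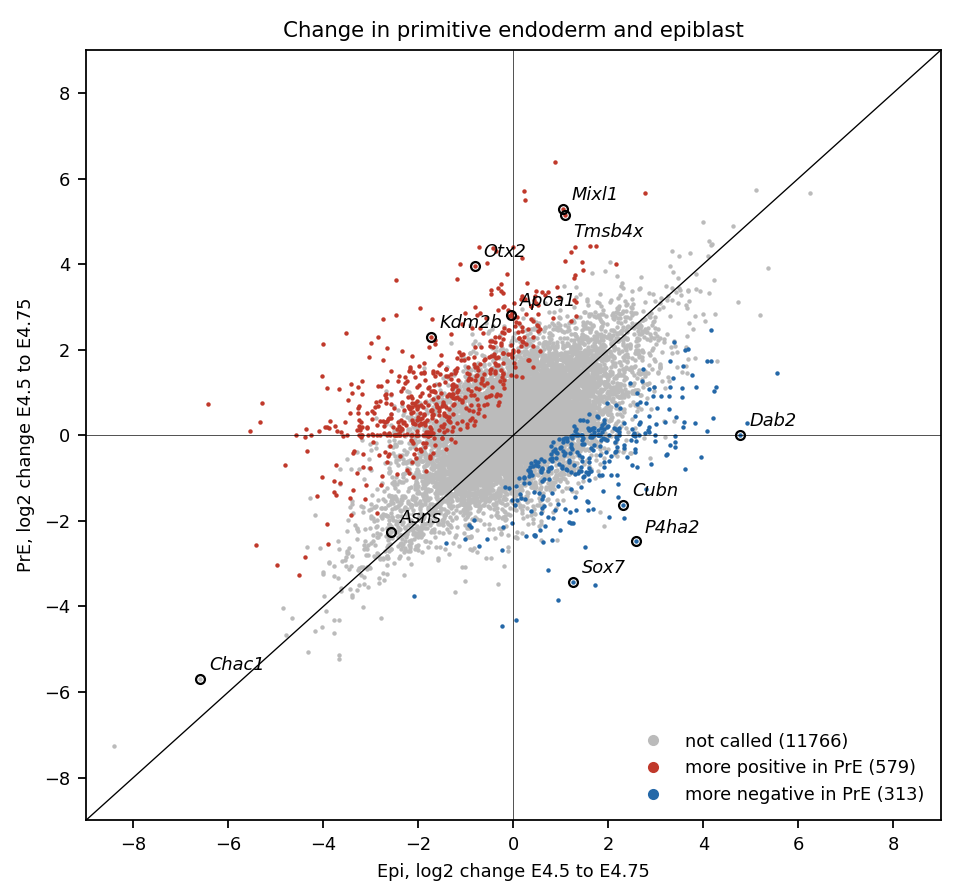
Change from E4.5 to E4.75 in log2(TPM + 1) in epiblast (horizontal) and primitive endoderm (vertical) for 12658 genes, with the 579 genes of more positive and 313 of more negative change in primitive endoderm in red and blue. The diagonal marks equal change; Chac1 and Asns lie near it, Sox7 and Cubn below it and Apoa1 and Mixl1 above it.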

How the data were processed

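Polyadenylated RNA of small pools of cells was amplified by Smart-seq2. The authors deposited a table of TPM values for 25006 genes in 67 libraries of 23 groups. HISAT2 2.2.1, StringTie 2.2.1, Cufflinks and the build mm10 are named in the submitters' processing notes, without roles; the annotation and the use of strand are not given in the sources used here. TPM keeps no depth, so the counting error of a value is unknown. Deposited columns sum to 985701 to 996469; here Rn45s was dropped and each column rescaled to 1e+06. Groups came from the labels.

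Genes at 1 TPM or more in at least 3 libraries of a fit were tested on log2(TPM + 1) with limma 3.58.1 (R 4.3.3, moderated, with a trend), and p-values were adjusted by Benjamini-Hochberg over all of them. Calls needed an adjusted p under 0.05 with a log2 difference of at least 1, and only called genes are said to rise or fall. Differences are on that scale, with the standard error after ±, and understate the change of low genes. Of the genes tested, 559 passed the filter through E4.75 alone and had to differ, so counts over a list are descriptions.

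Members and the 41 lists were chosen with earlier results of these data known, and 4 lists after these values were seen. Genes were named as the 20 largest changes each way without overlap, up to 4 called each way and 2 uncalled per list, the 5 highest means and the 5 largest interactions each way; others were chosen after their values were seen, and some that the rule names are not reported here. Alternatives covered scaling, pseudocount, filter, libraries in the fit, array weights and leaving out each library. Simulated data had 100 genes changed per size, drawn from genes with a mean log2(TPM + 1) of at least 3. For the comparison of ages (10873 genes) 63% were recovered at 1.5 log2 units and 92% at 3, and 19.7% of calls were false. For the interaction (12658 genes) these were 48%, 89% and 25.1%. Genes of lower mean were not changed, and far fewer genes were changed than were called in the data. These shares therefore do not describe the calls reported here. Positions are those of GENCODE on GRCm38, which is mm10.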

Additional observations from a re-analysis of the deposited data

Results flagged for a closer look

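Changes that differed between primitive endoderm and epiblast over E4.5 to E4.75 were picked out by the interaction test of limma over 12 libraries, with 579 genes more positive and 313 more negative in PrE. A positive value is a more positive change in PrE on the log2(TPM + 1) scale, which a fall in Epi can also give. In the same way a rise in Epi can give a negative value. The genes described above had differences of changes of -5.23 for Ly6a, -5.06 for P4ha2, -4.78 for Dab2, -4.68 for Sox7, -3.93 for Cubn, -3.08 for Lamb1 and -1.41 for Cdkn1a. On the other side these were 5.91 for Cyp2b23, 4.76 for Otx2, 4.25 for Mixl1, 4.06 for Tmsb4x, 4.03 for Kdm2b, 2.85 for Apoa1 and 2.52 for Lhx1. Where a group was listed at 0 the adjusted p alone is given. It was 6.7e-06 for Ube2dnl1, 2.4e-05 for Jam2, 4.3e-05 for Ackr3, 4.4e-05 for Nanog and 2.0e-04 for Gata6os. The part of the higher Rn45s share at E4.5, present in both lineages, was not tested.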

How the results depend on the processing

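Of 168 called genes among those named above, 132 kept the call under every alternative run that tested them. At least 1 other called gene named above was not followed in this way. Over all genes fewer held, as 1035 of 1656 risen and 634 of 996 fallen genes lost no call in the leave-one-out fits that tested them. Genes under 1 TPM in every E4.5 library were not tested in the fits without an E4.75 library, so they could not lose the call there. Of the 168, 23 lost the call in at least 1 leave-one-out fit and 27 under at least 1 other alternative, quantile normalization ending most (10). Another 9 genes were called under some alternative. The sign turned for Gata4 (log2 0.16 with Rn45s kept, 0.13 under quantile normalization and -0.27 to 0.031 over the leave-one-out fits), for Dab2 (-0.068 under quantile normalization, -0.081 with array weights and -0.20 to 0.15 over the leave-one-out fits) and for Sox2 (-0.065 under quantile normalization, with E4.5 listed at 0). The cause was not tested.

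Genes higher at E4.75 numbered 607 to 2134 and genes lower 716 to 1273 over the leave-one-out fits. Among genes above 0 in every library 1005 were higher, and with no minimum difference 1761 were lower. More positive changes in PrE than in Epi numbered 304 to 781 and more negative ones 153 to 455 over the leave-one-out fits. Among genes above 0 in every library these were 239 and 178, with all 67 libraries in 1 fit 1152 and 517, and under quantile normalization 481 were more negative. Alternatives on the counts were chosen after the data were seen, leaving out epiblast-rich genes (1459 higher and 958 lower) and centring on the median of all genes (1529 higher and 1150 lower).

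In their deviations from the mean of each age, same-numbered libraries correlated at 0.037, 0.007 and 0.017 and the others at -0.048 to 0.026. With 3 libraries per age this cannot show whether the numbers pair them, and the labels do not say so. With the replicate block 1530 genes were higher and 910 lower, and 520 and 271 in the interaction. TPM keeps no depth, so counting error could not be set beside these values.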

Other observations

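Lists of lineages not described above held few tested genes. Over all genes 15.2% rose and 9.16% fell. Of 8 tested parietal endoderm genes 1 rose and 1 fell, of 9 trophectoderm genes 3 and 2, and of 7 extra-embryonic ectoderm genes 2 and none. Of 2 giant cell and 2 uterine stroma genes 1 each rose, and the single tested blood gene rose. In the giant cell, uterine stroma and blood lists 1 tested gene each was listed at 0 in every E4.5 library. It passed the filter through E4.75 alone and had to differ, so these counts are descriptions and no test. The parietal endoderm and trophectoderm lists also held 1 such gene each. Of 9 iron and heme genes Trf and Tfrc, the transferrin receptor gene, rose, and 1 of the 9 was likewise listed at 0 in every E4.5 library. No gene of the 12 on the mitochondrial genome list was used here.

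By GENCODE biotype 1485 of 10205 protein-coding genes rose and 958 fell by limma. In the same fit 14 of 56 small nucleolar RNAs rose and none fell, 25 of 96 lincRNAs rose and 5 fell, and 21 of 72 antisense transcripts rose and 2 fell. Many of these lie within or opposite other genes, and the use of strand in the counting is not given in the sources used here.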
